A study of Mus musculus with 6 samples.

Results

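The genes described here encode the subunits of respiratory complexes II to V and cytochrome c. They were taken by symbol from the protein-coding genes of the deposited liver table: the Sdha to Sdhd genes, those whose symbols start with Uqcr, Cox4 to Cox8, Atp5, mt-Co or mt-Atp, and Cyc1, Cycs and mt-Cytb. The choice used no measured value. It gave 53 of the 24034 genes in the table, of which 47 are nuclear and 6 are encoded in mitochondrial DNA. Another 5 rows with matching symbols are annotated as pseudogenes and were left out. Liver RNA of C57BL/6 mice aged 25 weeks was sequenced, with 3 libraries labelled lncenc1wt/wt (WT) and 3 labelled lncenc13A/3A (HO). Lncenc1 is a long non-coding RNA gene. The series' design text calls the mutant mice knockouts, but the sources used here do not say what the 3A allele changes. Genotypes were taken from the labels alone, and Lncenc1 RNA was not analysed here. The labels name neither the C57BL/6 substrain nor the separate animals. Substrain and genotype therefore cannot be told apart, and the spread between libraries behind every p-value may be technical.

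The respiratory chain sits in the inner mitochondrial membrane. Complex II passes electrons from succinate to ubiquinone, complex III passes them from ubiquinone to cytochrome c, and complex IV passes them from cytochrome c to oxygen. Complexes III and IV pump protons across the membrane, and complex V, the ATP synthase, lets them flow back and makes ATP. Complex II is wholly nuclear encoded, whereas complexes III, IV and V each combine nuclear and mitochondrially encoded subunits. Hepatocytes, the main cells of liver, use this chain to oxidise fatty acids and to power gluconeogenesis and urea synthesis.

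Expression was given as FPKM, fragments scaled for transcript length and for library size, which can be compared between genes. The values summed to between 495570 and 518218 FPKM per library, and the spacing of low values gave relative depths of 19100000 to 24600000 read equivalents. The labelled tissue was checked with 8 hepatocyte markers, all of which were detected. Their summed levels were 46401 to 49809 FPKM in WT and 41477 to 45643 FPKM in HO, without overlap. By log2 change, 4 of the 8 markers were negative and 4 were positive. One of them, the urea cycle enzyme Cps1, rose from 399 ± 41.3 FPKM to 729 ± 111 FPKM (SD, n = 3 each; log2 change 0.86, adjusted p = 0.0422 with limma and Benjamini-Hochberg adjustment, between 0.0399 and 0.166 when single libraries were left out). This call was lost without the filter (limma adjusted p = 0.0867), without a variance trend (0.0674) and with the replicate number as a block. It was also lost when any library but WT replicate 3 or HO replicate 1 was left out.

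No subunit RNA of complexes II to V passed the test between HO and WT. The differences were mostly negative and small, with 19 of the 43 nuclear genes tested lower in HO at an unadjusted p under 0.05. Of the 53 genes, 49 reached the filter of a mean of 0.5 FPKM. A total of 0 of these 49 passed an adjusted p of 0.05 (limma on log2(FPKM + 0.5), two-sided), where 1.14% of all 13250 genes tested passed (0.815% lower and 0.325% higher), and the smallest adjusted p was 0.0573, for Atp5g3. At an unadjusted p under 0.05, 20 were lower and 0 were higher, against 16.5% and 5.01% of all genes. The difference between HO and WT was negative for 48 of the 49, where 64.6% of all genes had a negative difference. The exception was mt-Atp8. In 23 of the 43 nuclear genes tested all HO values lay below all WT values, and in 0 they lay above, against 21.4% and 6.42% of all genes. The median log2 change, HO against WT, was -0.25 for the 43 nuclear genes and -0.16 for the 6 mitochondrially encoded genes, against -0.094 for all genes and -0.12 for the 1190 genes whose mean reached 50 FPKM. In liver as a whole tissue, fewer cells of a type and less RNA per cell cannot be told apart.

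**Figure D1:**
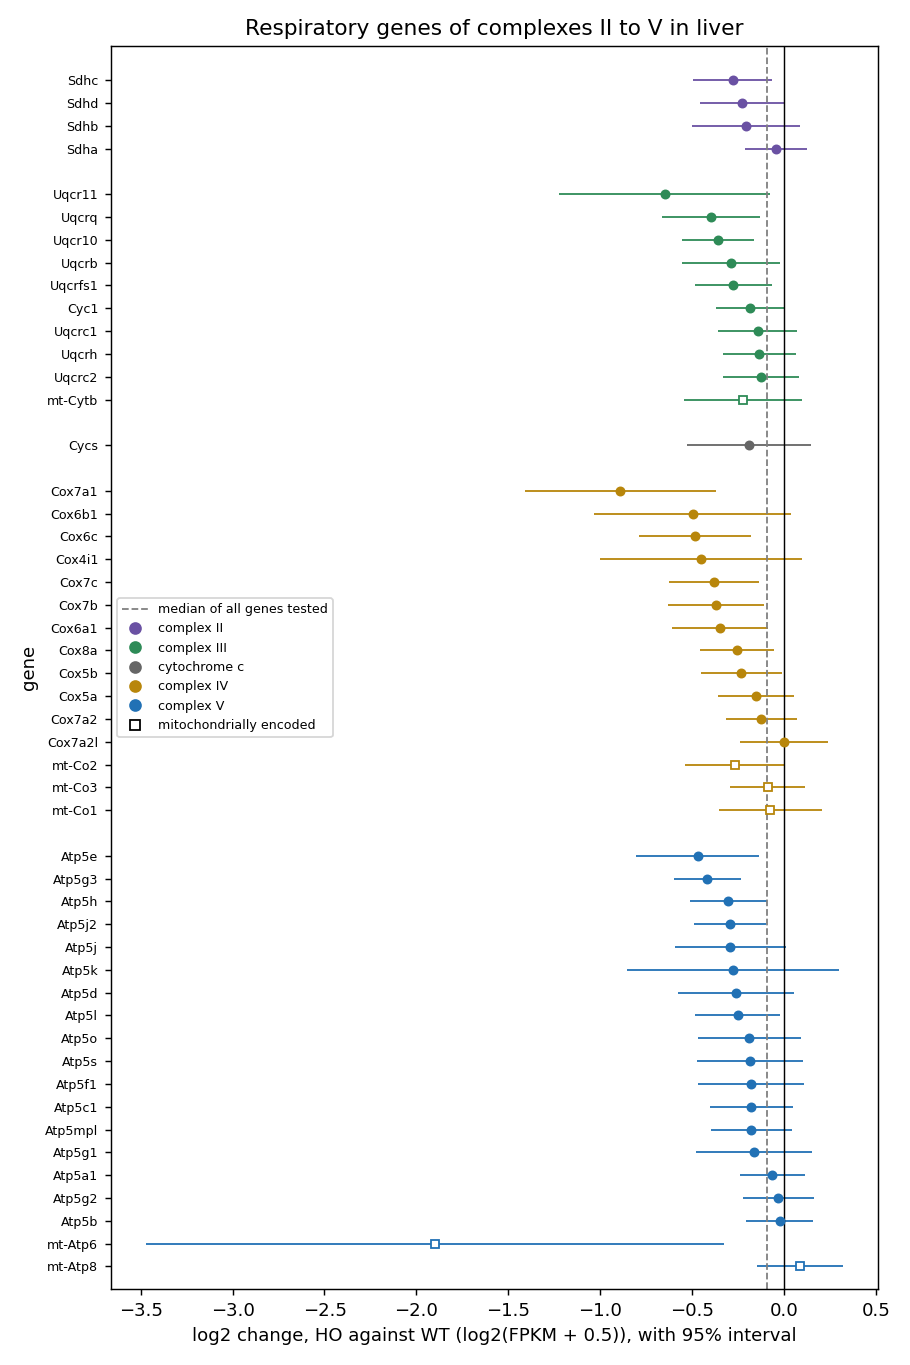
The log2 change, HO against WT, on the log2(FPKM + 0.5) scale is plotted for each of the 49 genes tested, with its 95% interval, coloured by complex, with open squares for mitochondrially encoded genes. The dashed line marks the median of all genes, at -0.094, and 48 of the 49 points lie below 0, with mt-Atp6 at -1.90 and a wide interval.

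Part of the difference depended on scaling. Median-of-ratios scaling and quantile normalization each moved the median of all genes to about 0, at -0.0020 in both. The median of the nuclear genes was then -0.15 and -0.17, and 38 and 40 of the 43 kept a negative difference. Genes lower at an unadjusted p under 0.05 then numbered 9 and 13 of the 49, against 9.49% and 10% of all genes. With limma's array weights, 9 nuclear genes passed the adjusted threshold, all of them lower in HO: Atp5e, Atp5g3, Atp5j2, Cox6c, Cox7a1, Cox7b, Cox7c, Uqcr10 and Uqcrq. The weights raised the count over all genes as well, to 941 (692 lower and 249 higher) from 151.

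The libraries of a group were not alike for these genes. Per library, the median deviation of the 43 nuclear genes from their WT mean was 0.0036, 0.066 and -0.066 in WT and -0.14, -0.32 and -0.27 in HO, on the log2 scale. The groups did not overlap, and HO replicate 1 lay nearest to WT. That library held the highest HO value for 36 of the 43 genes, and WT replicate 3 held the lowest WT value for 25. For all genes tested the corresponding HO medians were closer together, at -0.10, -0.10 and -0.078. The nuclear genes together made up 1.67, 1.78 and 1.59% of summed FPKM in the WT libraries and 1.42, 1.35 and 1.38% in the HO libraries. The HO shares thus all lay below the WT shares. Leaving out HO replicate 1 gave 27 of the 49 genes lower at an unadjusted p under 0.05, against 17.8% of all genes. Leaving out WT replicate 2 or HO replicate 2 gave 12 each, against 11.2% and 12.2% of all genes, so the share over all genes moved the same way.

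**Figure D2:**
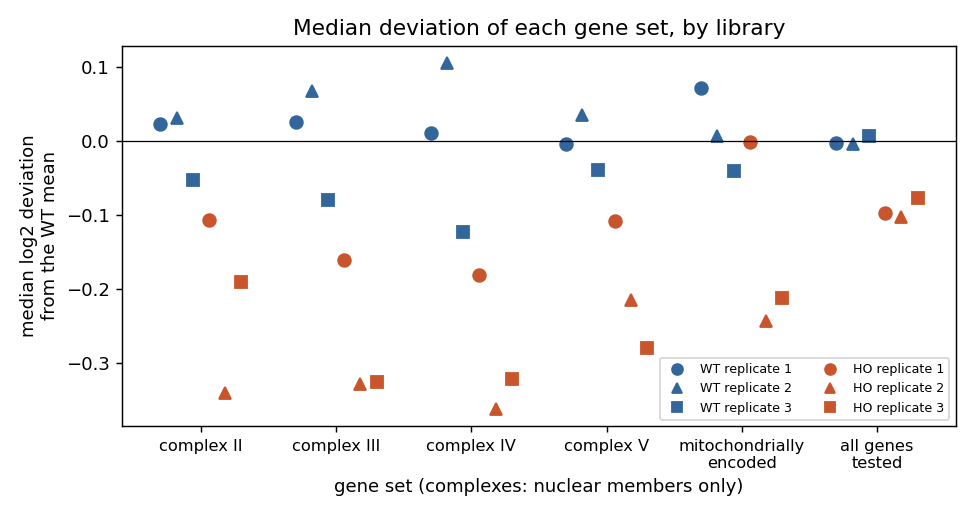
The median log2 deviation from the WT mean is plotted per library for the nuclear genes of each complex, for the mitochondrially encoded genes and for all genes tested, with colours for the groups and symbols for the replicates. In each of the 4 nuclear complexes the 3 HO libraries lie below the 3 WT libraries, with HO replicate 1 the nearest, while HO replicate 1 lies among the WT libraries for the mitochondrially encoded genes.

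Complex II, succinate dehydrogenase, had 4 nuclear genes with a median log2 change of -0.22. The membrane anchor subunits Sdhc and Sdhd, which help form the ubiquinone site, were lower at an unadjusted p under 0.05, and the catalytic subunits Sdha and Sdhb were not. Sdhc (chromosome 1, 171127165 to 171150603, minus strand, GRCm38) was at 62.8, 63.0 and 55.2 FPKM in WT and 52.5, 47.4 and 48.8 FPKM in HO. All HO values lay below all WT values, by a small margin between WT replicate 3 and HO replicate 1, and the log2 change was -0.28 ± 0.091 (SE, limma adjusted p = 0.148). Sdhd was at 125, 123 and 138 FPKM in WT and 112, 99.3 and 118 FPKM in HO, also without overlap (-0.23 ± 0.10, adjusted p = 0.228, limma). Sdha, the flavoprotein that oxidises succinate, was the most abundant of the 4, at 189.6, 191 and 194 FPKM in WT and 189, 181 and 188 FPKM in HO. Its log2 change was -0.044, with a 95% interval of -0.21 to 0.12, and its sign turned under both scalings, to 0.060 and 0.038. Sdhb, the iron-sulfur subunit, was at 147 ± 16.7 FPKM in WT and 127 ± 15.5 FPKM in HO, with overlapping groups (limma adjusted p = 0.388). Summed over the 4 genes, complex II was at 537, 530.4 and 516 FPKM in WT and 498, 443 and 477 FPKM in HO.

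Complex III, the cytochrome bc1 complex, had a median of -0.28 over its 9 nuclear genes. Of these, 5 were lower at an unadjusted p under 0.05 and 6 did not overlap between the groups, against 16.5% and 21.4% of all genes. Small accessory subunits of complex III surround the catalytic core. Of these, Uqcr11, Uqcrq, Uqcr10 and Uqcrb had the lowest log2 changes of the complex, whereas Uqcrh was at -0.13. Uqcr10 (chromosome 11, 4701973 to 4704342, minus strand) was at 203, 222 and 198 FPKM in WT and 166, 154 and 165 FPKM in HO. Its HO values were all below the WT values and close together, and its level in HO was 77.9% of that in WT (log2 change -0.36 ± 0.083, limma adjusted p = 0.0811). Uqcrq, which lies beside cytochrome b and was the most abundant nuclear gene of this complex, was at 269, 273 and 221 FPKM in WT and 211, 185 and 182 FPKM in HO (-0.40 ± 0.11, adjusted p = 0.116, limma). Uqcr11 had the lowest log2 change of the complex, -0.65 ± 0.24, but rested in part on WT replicate 1. It stood at 238, 143 and 115 FPKM in WT and 107, 98.2 and 96.8 FPKM in HO, and the adjusted p with limma was 0.188. Uqcrb, another small subunit, was at 215 ± 27.0 FPKM in WT and 175 ± 11.9 FPKM in HO, with WT replicate 3 below HO replicate 1. A share of 25.5% of its 50-base words also occurs in transcripts of other genes.

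Of the nuclear catalytic subunits of complex III, 1 was lower at an unadjusted p under 0.05. Uqcrfs1, the Rieske iron-sulfur protein, was at 158 ± 9.51 FPKM in WT and 131 ± 9.10 FPKM in HO without overlap (-0.28 ± 0.09, adjusted p = 0.148, limma). Cyc1, cytochrome c1, was at 112 ± 2.12 FPKM and 98.5 ± 6.00 FPKM, again without overlap (-0.18 ± 0.08, adjusted p = 0.241, limma). The core subunits Uqcrc1 and Uqcrc2 and the hinge protein Uqcrh had log2 changes of -0.14, -0.13 and -0.13, and of these only Uqcrh did not overlap between the groups. Summed over the 9 genes, complex III stood at 1584, 1552 and 1348 FPKM in WT and 1298, 1160.0 and 1167 FPKM in HO. WT replicate 3 and HO replicate 1 were again the nearest libraries. Cycs, cytochrome c, which carries electrons from complex III to complex IV, was at 18.8, 26.5 and 19.2 FPKM in WT and 19.2, 17.5 and 18.9 FPKM in HO. The groups overlapped, with only WT replicate 2 apart (-0.19 ± 0.14, adjusted p = 0.48, limma), and 26.1% of its 50-base words occur in other genes.

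Complex IV, cytochrome c oxidase, had the lowest median among the complexes, -0.36 over the 12 nuclear genes tested of 16. Of these, 7 were lower at an unadjusted p under 0.05 and 9 did not overlap between the groups, against 16.5% and 21.4% of all genes. No test was made of the difference between complexes. Cox6c (chromosome 15, 35925886 to 35938246, minus strand), an accessory subunit, was at 262, 282 and 206 FPKM in WT and 173, 189 and 169 FPKM in HO. WT replicate 3 was the nearest to the HO values, and the log2 change was -0.48 ± 0.13 (limma adjusted p = 0.102, or 0.0395 without WT replicate 3, where it passed). Its pseudogene Cox6c2, left out of the counts, was at 10.4, 11.1 and 5.60 FPKM in WT and 5.22, 5.02 and 5.31 FPKM in HO. Cox7c was at 355 ± 38.6 FPKM in WT and 272 ± 13.7 FPKM in HO (-0.38 ± 0.10, adjusted p = 0.106, limma). Cox7b, Cox6a1, Cox8a and Cox5b, all accessory subunits without overlap between the groups, had log2 changes of -0.37, -0.35, -0.25 and -0.23.

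The most abundant nuclear gene of complex IV, Cox4i1, varied widely within each group. It was at 470.5, 725 and 487 FPKM in WT and 302, 419.9 and 510.2 FPKM in HO, so that HO replicate 3 exceeded both WT replicates 1 and 3 (-0.45 ± 0.23, adjusted p = 0.315, limma). Cox6b1, which faces the intermembrane space, was at 272, 282 and 245 FPKM in WT and 244, 212 and 128 FPKM in HO. The groups did not overlap, but WT replicate 3 and HO replicate 1 differed by less than 1 FPKM and HO replicate 3 lay far below the rest (-0.50 ± 0.23, adjusted p = 0.261, limma). Cox5a and Cox7a2 had log2 changes of -0.15 and -0.12. Cox7a2l, a relative of Cox7a2, was classed here as a factor that joins complexes III and IV into supercomplexes. Whether it has that role in these mice was not examined. Cox7a2l was at 56.9, 48.4 and 60.7 FPKM in WT and 54.5, 54.7 and 55.8 FPKM in HO. The HO values all lay within the WT range, and the 95% interval of its log2 change was -0.24 to 0.24. Summed over its nuclear genes, complex IV stood at 2761, 3163 and 2579 FPKM in WT and 2266, 2217 and 2213 FPKM in HO, with no overlap.

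Several subunits of complex IV exist as isoforms that are used in other tissues. Cox7a1, the heart and skeletal muscle form of subunit 7a, was detected at a low level, 3.05, 3.01 and 4.47 FPKM in WT and 1.97, 1.93 and 1.12 FPKM in HO. All HO values were below all WT values, and at 47.7% of the WT level this was the largest relative difference among the nuclear genes tested (log2 change -0.89 ± 0.22, limma adjusted p = 0.0917). Of 8 skeletal muscle markers the table holds Myh4 and Actn3, both listed at 0 in all 6 libraries. The other muscle or heart forms Cox6a2 and Cox8b, and the lung form Cox4i2, were also listed at 0 in all 6. The testis form Cox6b2 was at 0.474, 0.519 and 0.755 FPKM in WT and 0, 0.481 and 0 FPKM in HO, and did not reach the filter. The liver forms Cox4i1, Cox6a1, Cox6b1, Cox7a2 and Cox8a thus held nearly all of the RNA of these subunits in both groups.

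**Figure D3:**
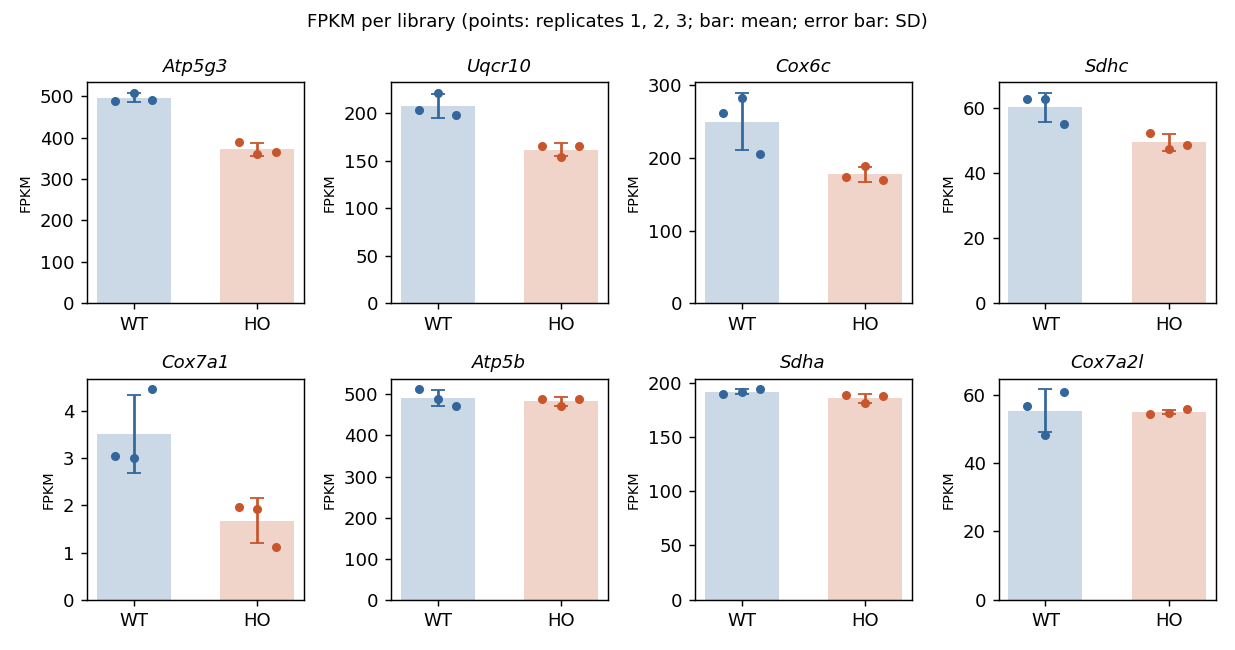
FPKM per library is plotted for 8 nuclear genes, with 1 point for each of the 3 WT and 3 HO libraries, bars for the mean and error bars for the SD, each panel with its own axis from 0. The HO points lie below the WT points for Atp5g3, Uqcr10, Cox6c, Sdhc and Cox7a1, nearly touch them for Sdha, and overlap them for Atp5b and Cox7a2l.

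Complex V had 17 nuclear genes, all tested, with a median log2 change of -0.19. Of these, 5 were lower at an unadjusted p under 0.05 and the same number did not overlap between the groups, against 16.5% and 21.4% of all genes, so the second count lies near the background. The catalytic head, F1, turns on a central stalk. Its large subunits, Atp5a1 (alpha) and Atp5b (beta), which bind the nucleotides, differed little between the groups. Atp5b, which had the highest mean over the 6 libraries among the nuclear genes, was at 513, 489 and 472 FPKM in WT and 489.5, 471 and 489 FPKM in HO, with a 95% interval for the log2 change of -0.21 to 0.16. Atp5a1 was at 342 ± 5.19 FPKM in WT and 327 ± 12.1 FPKM in HO (interval -0.24 to 0.11). Of the stalk subunits, Atp5e (epsilon) was at 347, 364 and 318 FPKM in WT and 300.1, 242 and 207 FPKM in HO, without overlap (-0.47 ± 0.14, adjusted p = 0.127, limma). Atp5c1 (gamma) and Atp5d (delta) had log2 changes of -0.18 and -0.26, with overlapping groups.

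The c ring, the rotor in the membrane, is built of identical c subunits that 3 genes encode. Their log2 changes were not tested against each other, and the 95% interval of Atp5g1, -0.48 to 0.15, holds the estimates of the other two. Atp5g3 (chromosome 2, 73908447 to 73911326, minus strand) was at 488, 508 and 491 FPKM in WT and 389, 359.7 and 364 FPKM in HO. The values within each group lay close together and the groups were far apart, with HO at 74.9% of WT (log2 change -0.42 ± 0.078, limma adjusted p = 0.0573). It passed the threshold when FPKM was rescaled to nuclear genes alone (adjusted p = 0.0446) and did not pass when any single library was left out. Atp5g2 was at 70.8, 69.8 and 75.4 FPKM in WT and 66.2, 73.0 and 72.3 FPKM in HO, with overlapping groups and a log2 interval of -0.22 to 0.16. The sign of that small change turned under both scalings, and 38.3% of its 50-base words occur in other genes. Atp5g1 was at 138, 144 and 168 FPKM in WT and 158, 129 and 117 FPKM in HO, also overlapping (-0.16 ± 0.13, adjusted p = 0.523, limma). Summed over the 3 genes, c subunit RNA stood at 697, 722 and 734 FPKM in WT and 614, 561 and 553 FPKM in HO. The part of that sum from Atp5g3 was 70.0, 70.4 and 66.9% in WT and 63.4, 64.1 and 65.8% in HO, without overlap, which was not tested.

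The peripheral stalk holds F1 still against the membrane part. Of its 4 genes, Atp5h (subunit d) was lower at an unadjusted p under 0.05, at 266 ± 23.1 FPKM in WT and 215 ± 7.12 FPKM in HO (-0.30 ± 0.09, adjusted p = 0.124, limma). Atp5j, Atp5o and Atp5f1 had log2 changes of -0.29, -0.19 and -0.18, with overlapping groups, and 41.6% of the 50-base words of Atp5o occur in other genes. Among the small membrane subunits, Atp5j2 (subunit f) was at 164, 174 and 153 FPKM in WT and 139, 130.2 and 131 FPKM in HO. All HO values lay below the WT values (-0.29 ± 0.084, adjusted p = 0.115, limma). Atp5l (subunit g), needed for ATP synthase dimers, was at 97.8 ± 6.50 FPKM and 82.2 ± 7.55 FPKM, again without overlap (-0.25 ± 0.10, adjusted p = 0.201, limma). Atp5k (subunit e), its partner in the dimer, varied from 119 to 201 FPKM in WT and from 104 to 167 FPKM in HO, and its groups overlapped. Atp5mpl, a small subunit, and Atp5s, which is related to assembly and was the least abundant gene of complex V, had log2 changes of -0.18 and -0.18. Over its nuclear genes, complex V summed to 3578, 3729 and 3493 FPKM in WT and 3278, 2980.1 and 2949 FPKM in HO.

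The mitochondrially encoded genes form the catalytic and proton-conducting cores. They are transcribed together from mitochondrial DNA, yet their listed values differed widely from gene to gene. mt-Cytb, cytochrome b of complex III, was at 10509.9, 9849 and 8934 FPKM in WT and 9644, 7938 and 7608 FPKM in HO. The groups overlapped through HO replicate 1 (-0.22 ± 0.14, adjusted p = 0.388, limma). mt-Co1, which holds the oxygen-binding site of complex IV, was at 10266, 9809 and 8873 FPKM in WT and 9846, 8423 and 9214 FPKM in HO. The groups overlapped here too, and the sign of its log2 change of -0.075 turned under both scalings, to 0.029 and 0.12. mt-Co2, which receives electrons from cytochrome c, was listed at only 50.4, 45.1 and 46.0 FPKM in WT and 45.3, 35.1 and 37.5 FPKM in HO (-0.27 ± 0.11, adjusted p = 0.236, limma). mt-Co3, the third core subunit of complex IV, was listed at 37.9, 36.4 and 35.3 FPKM in WT and 36.8, 32.2 and 34.1 FPKM in HO, with a log2 change of -0.089 whose sign also turned under both scalings. mt-Atp8, a small subunit beside the proton channel of complex V, was at 28.2, 28.5 and 31.1 FPKM in WT and 34.5, 28.6 and 30.4 FPKM in HO, the single gene of the 49 with a positive log2 change (0.087 ± 0.10, adjusted p = 0.654, limma).

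The low rows of mt-Atp6, mt-Co2 and mt-Co3 have identical or near-identical annotated copies in the nuclear genome. None was found for mt-Atp8, but only annotated transcripts were compared, so an unannotated copy was not looked for. On the mitochondrial genome mt-Atp8 lies between mt-Co2 and mt-Atp6, and the nuclear stretch between the copies of these genes was not searched. A block on the minus strand of chromosome 1 (GENCODE mouse release 21, GRCm38) holds annotated copies of mitochondrial DNA. The copy of mt-Atp6, Gm10925 (chromosome 1, 24613974 to 24614651), matches all 678 aligned bases. That of mt-Co2, Gm28661 (24614885 to 24615565), matches all 681, and that of mt-Co3, Gm28437 (24613189 to 24613971), all 783. Gm29216 (24615706 to 24616197) aligns to mt-Co1 over 483 bases with 1 mismatch, A1066T, counted from the first base of the mt-Co1 transcript, whose base is given first. Of all 50-base words, 99.5% of those in mt-Atp6, 100% in mt-Co2 and 99.9% in mt-Co3 occur in another gene, against 51.1% in mt-Co1 and 0% in mt-Cytb and mt-Atp8. The first 60 bases of mt-Atp6 and of its copy are printed below because no read within them can be placed by sequence. Capitals mark the 43 bases that mt-Atp6 shares with the end of mt-Atp8, which overlaps it on the mitochondrial genome. These bases also occur in Gm10925 but are too few to fill a 50-base word, so the 0% for mt-Atp8 does not count them.

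mt-Atp6: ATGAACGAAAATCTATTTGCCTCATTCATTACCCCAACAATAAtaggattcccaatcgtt

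Gm10925: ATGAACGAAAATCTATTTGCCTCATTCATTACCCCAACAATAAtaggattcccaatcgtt

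The mt-Atp6 and Gm10925 rows must therefore be read together. mt-Atp6, the subunit that forms the proton channel, was listed at 6.90, 46.4 and 41.6 FPKM in WT and 6.98, 4.49 and 7.02 FPKM in HO. WT replicates 2 and 3 stood apart, and WT replicate 1 lay within the HO range. The log2 change of -1.90 ± 0.67 had a limma adjusted p of 0.169, and without WT replicate 1 it was -2.76 with an adjusted p of 0.0487. The copy held far higher values, 1799.6, 1679 and 1577 FPKM in WT and 1611, 1332 and 1349 FPKM in HO. Combined and scaled to the length of mt-Atp6, the pair stood at 1799, 1718 and 1611 FPKM in WT and 1610.5, 1331 and 1350.1 FPKM in HO, without overlap, although WT replicate 3 and HO replicate 1 differed by less than 1 FPKM. The combined log2 change was -0.26 (limma adjusted p = 0.226). For mt-Co2, mt-Co3 and mt-Co1, each combined with the copy named above, it was -0.20, -0.18 and -0.079. For mt-Co1 that copy, Gm29216, holds 28.7% of its 50-base words, whereas 51.1% occur in any other gene, and no further sharing gene was added. The combined levels of mt-Co2 and mt-Co3 ranged from 964 FPKM (mt-Co3, HO replicate 3) to 1460.3 FPKM (mt-Co2, WT replicate 1). In each of these 4 pairs the combined HO value of replicate 1 was the highest of the HO group.

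**Figure D4:**
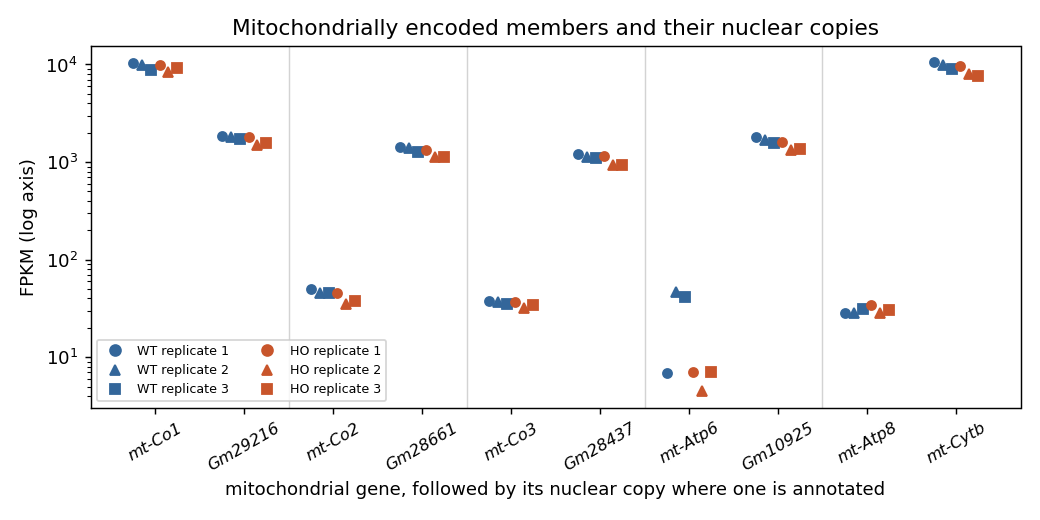
FPKM per library is plotted on a log axis for the 6 mitochondrially encoded genes, each followed by its annotated nuclear copy where there is one, with colours for WT and HO and symbols for the replicates. mt-Co1 and mt-Cytb are the highest, while mt-Co2, mt-Co3 and mt-Atp6 lie far below their copies, and only mt-Atp6 splits the WT libraries.

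Within the nuclear genes, the size of the difference went with the length of the coding sequence, a feature that the choice of genes did not use. The boundary of 500 bases was chosen after the values were seen. The 28 nuclear genes tested with coding sequences under 500 bases had a median log2 change of -0.29, with 17 lower at an unadjusted p under 0.05. The 15 with longer coding sequences had a median of -0.18, with 2 lower, Sdhc and Uqcrfs1. Across the 43 genes the Spearman correlation between log2 change and coding length was 0.56, and that with mean FPKM was -0.31, given as descriptions over genes that share the same 6 libraries. The same ordering was present outside the respiratory chain. Of the other nuclear protein-coding genes whose mean reached 50 FPKM, 181 with short coding sequences had a median of -0.22, with 81 lower, and 919 longer ones a median of -0.074, with 239 lower. Fragment length and RNA quality are not given in the sources used here, and the part of transcript length in the result was not tested. The accessory subunits of complexes III and IV are mostly short, and the 17 of them had a median of -0.35, against -0.19 for the 4 nuclear catalytic subunits of complexes II and III. The 17 include the core subunits Uqcrc1 and Uqcrc2, classed here as accessory, whose coding sequences are longer than 500 bases. For complex I, which precedes these complexes in the chain, the 46 nuclear genes whose symbols start with Nduf were taken. That pattern matches assembly factors as well as subunits. Their median was -0.27, with 22 lower at an unadjusted p under 0.05. Of the 46, 1 passed the adjusted threshold with limma, lower in HO, against 0.815% of all genes. A set for cytosolic ribosomal proteins was taken by symbols starting with Rpl or Rps and a digit or p, which also matches S6 kinase genes. The 92 of these tested had a median of -0.10, with 16 lower at an unadjusted p under 0.05. With limma, 1 passed the adjusted threshold lower and 1 higher, against 0.815% and 0.325% of all genes. Over all genes, 16.5% were lower at an unadjusted p under 0.05.

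**Figure D5:**
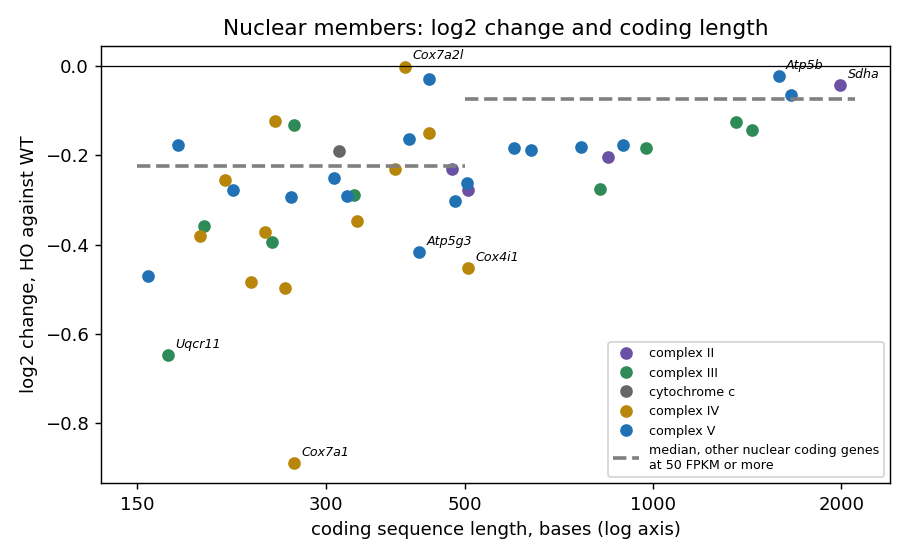
The log2 change, HO against WT, of each of the 43 nuclear genes tested is plotted against the length of its coding sequence in bases (log axis), coloured by complex, with dashed lines for the medians of other nuclear coding genes at 50 FPKM or more. Genes under 500 bases reach from -0.0018 to -0.89, and the longest, Sdha, lies at -0.044.

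Promoters were looked up because nuclear respiratory genes are textbook targets of a small set of transcription factors: NRF1, the ETS factor GABP (NRF2), YY1 and the estrogen-related receptors (ERR). RefSeq promoters (GRCm38.p6, 250 bases before to 50 after the transcript start) were found for 36 of the 47 nuclear genes, 39 promoters in all. The NRF1 palindrome, spelled by the first capitals in the Cox6a1 promoter, was found in 4 of the 39 (10.3%, against 0.971% of all 32851 promoters), and the ETS letters CCGGAAG in 12 (30.8%, against 8.86%). The YY1 letters AAGATGGC were in 3 (7.69%, against 2.75%) and the ERR letters TCAAGGTCA in 2 (5.13%, against 0.423%). Both strands were searched, and no matches of different motifs overlapped. Among genes tested, the 12 with the ETS letters had a median log2 change of -0.28 and the 22 without them -0.19. For NRF1 the order was opposite, with -0.21 for the 4 genes with its letters and -0.24 for the 30 without. For YY1 the medians were -0.29 (3 genes) and -0.23 (31 genes), and for ERR -0.32 (2 genes) and -0.24 (32 genes), all given as descriptions. Both genes with the ERR letters, Atp5g3 and Sdhd, had HO values wholly below WT, but so did 23 of the 43 nuclear genes tested and 21.4% of all genes. The promoters of Atp5g3, Sdhd and Cox6a1, which holds both NRF1 and ETS letters, are printed 5′ to 3′ on the strand of the gene (minus in all 3). The matched letters, or their reverse complement, are in capitals. In Cox6a1 (chr5:115348909-115349208) these are the NRF1 and then the ETS letters, in Sdhd (chr9:50603800-50604099) the ETS and then the ERR letters, and in Atp5g3 (chr2:73911277-73911576) the ERR letters.

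Cox6a1: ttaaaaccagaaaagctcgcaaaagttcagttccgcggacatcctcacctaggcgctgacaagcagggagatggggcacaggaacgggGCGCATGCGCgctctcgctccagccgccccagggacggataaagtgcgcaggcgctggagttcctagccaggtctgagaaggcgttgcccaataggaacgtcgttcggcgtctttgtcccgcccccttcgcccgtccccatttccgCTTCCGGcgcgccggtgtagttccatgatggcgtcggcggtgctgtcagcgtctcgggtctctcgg

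Sdhd: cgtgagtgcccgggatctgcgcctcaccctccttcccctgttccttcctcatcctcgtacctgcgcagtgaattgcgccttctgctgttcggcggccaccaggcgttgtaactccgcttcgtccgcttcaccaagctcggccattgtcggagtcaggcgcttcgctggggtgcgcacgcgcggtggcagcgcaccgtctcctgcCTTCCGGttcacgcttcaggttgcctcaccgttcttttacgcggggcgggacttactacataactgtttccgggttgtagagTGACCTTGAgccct

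Atp5g3: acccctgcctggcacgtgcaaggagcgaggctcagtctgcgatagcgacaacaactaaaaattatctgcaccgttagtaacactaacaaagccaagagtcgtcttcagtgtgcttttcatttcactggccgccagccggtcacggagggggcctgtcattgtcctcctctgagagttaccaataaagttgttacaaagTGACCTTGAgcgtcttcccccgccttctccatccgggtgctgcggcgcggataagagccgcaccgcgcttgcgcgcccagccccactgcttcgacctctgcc

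The genes around the complexes were taken from lists of the pathway. Of 36 assembly factors of complexes II to V, which insert cofactors and join subunits, 34 were tested. Of these, 1 fell and 0 rose, against 0.815% and 0.325% of all genes. Their median log2 change was -0.20, and 10 were lower at an unadjusted p under 0.05, against 16.5% of all genes. The gene that fell was Pet100, a complex IV assembly factor, from 29.2 ± 7.34 FPKM in WT to 12.6 ± 1.82 FPKM in HO (-1.16 ± 0.19, adjusted p = 0.0454, limma). This call was lost with a pseudocount of 0.1, without the filter, under both scalings, without a variance trend and with the replicate number as a block. It was also lost when any library other than WT replicate 3 or HO replicate 1 was left out, with limma adjusted p of up to 0.136. Sdhaf1, an assembly factor of complex II, was at 5.69 ± 0.484 FPKM in WT and 3.48 ± 0.236 FPKM in HO (adjusted p = 0.0526, limma). Atpif1, which inhibits ATP synthase when it runs backwards, was at 18.9 ± 0.441 FPKM and 13.7 ± 1.32 FPKM (adjusted p = 0.0765, limma).

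Regulators of respiratory genes and the machinery of mitochondrial DNA were centred near 0. Of 22 genes tested with limma, 0 passed the adjusted threshold, and the median log2 change was 0.0038. At an unadjusted p under 0.05, 2 were lower and 1 was higher, against 16.5% and 5.01% of all genes. Ppargc1b, a coactivator of respiratory genes, was at 1.27 ± 0.074 FPKM in WT and 2.22 ± 0.505 FPKM in HO (0.60 ± 0.17, adjusted p = 0.115, limma). Its relative Ppargc1a was at 1.69, 1.63 and 1.20 FPKM in WT and 1.08, 0.927 and 1.08 FPKM in HO (adjusted p = 0.209, limma). Tfam, which packages mitochondrial DNA and starts its transcription, was at 10.7 ± 0.31 FPKM and 8.47 ± 0.514 FPKM (adjusted p = 0.12, limma).

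The steps that feed the chain were mixed. For the counts that follow, 16.5% of all genes were lower and 5.01% higher at an unadjusted p under 0.05. None of the 14 genes of the tricarboxylic acid cycle other than succinate dehydrogenase passed the limma threshold, with 4 lower and 1 higher at an unadjusted p under 0.05 (median -0.16). Fh1, fumarase, which takes the product of complex II, was at 63.5 ± 1.12 FPKM in WT and 87.3 ± 6.09 FPKM in HO without overlap (0.45 ± 0.083, adjusted p = 0.0571, limma), while Suclg2 and Idh2 had log2 changes of -0.39 and -0.52. Of 13 genes of ubiquinone synthesis, 0 passed with limma and 4 were lower at an unadjusted p under 0.05 (median -0.17), with Coq8a at 40.1 ± 12.4 FPKM in WT and 18.0 ± 4.08 FPKM in HO (adjusted p = 0.0888, limma). Of 8 enzymes that pass electrons to ubiquinone by other routes, such as Etfdh and Etfa of fatty acid oxidation (-0.22 and -0.23) and the glycerol phosphate enzyme Gpd2 (-0.28), 0 passed with limma and 1 was lower at an unadjusted p under 0.05 (median -0.089). Of 10 nucleotide and phosphate carriers, porins and uncoupling proteins 7 were tested, 0 passed with limma and 2 were lower at an unadjusted p under 0.05. These were Slc25a5, the main ADP/ATP carrier here (294 ± 16.3 FPKM against 243 ± 17.1 FPKM), and Slc25a4 (2.22 ± 0.486 FPKM against 1.41 ± 0.168 FPKM). Ucp2 had a log2 change of -0.38. The 7 mitochondrially encoded complex I genes had a median of -0.17, near that of their counterparts in complexes III to V.

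Markers of some other cells had lower sums in HO, although none of the single markers of erythroid, stellate, bile duct or fat cells passed the adjusted threshold with limma. At an unadjusted p under 0.05, 4 of 5 erythroid, 4 of 7 stellate, 1 of 4 bile duct, 1 of 2 adipocyte and 1 of 4 brown fat markers tested were lower and 0 were higher. For the other lists, 1 of 7 Kupffer cell, 0 of 7 endothelial and 0 of 1 lymphocyte markers tested were lower, and 0 were higher. Of the 8 hepatocyte markers, 1 was lower and 2 were higher. Over all genes, 16.5% were lower and 5.01% higher. These counts rest on few markers and were not tested against the shares over all genes. The 6 erythroid markers used were all in the table and summed to 644 to 667 FPKM in WT and 319 to 548 FPKM in HO, with Slc4a1 near 0. The 7 stellate cell markers summed to 85.4 to 108 FPKM in WT and 58.1 to 72.8 FPKM in HO, and 6 bile duct markers to 24.2 to 27.6 FPKM in WT and 20.1 to 23.0 FPKM in HO. Of 6 adipocyte markers 4 were in the table, summing to 52.4 to 64.7 FPKM in WT and 9.21 to 20.5 FPKM in HO, while the defining genes Adipoq and Plin1 were at 0 in all libraries and the difference lay in Cfd. Among the 4 of 6 brown fat markers in the table, Cidea was at 12.4, 10.1 and 12.8 FPKM in WT and 3.95, 0.108 and 1.11 FPKM in HO, without overlap (-2.90 ± 0.63, adjusted p = 0.0765, limma), although their sum, 119 to 187 FPKM in WT and 121 to 217 FPKM in HO, overlapped between the groups. Of the 4 brown fat markers, 2 had a negative and 2 a positive log2 change, with a median of 0.081. Cox7a1 is also expressed in brown fat. The part of these cells in the lower respiratory values was not tested. Sums for 7 Kupffer cell markers (70.1 to 126 FPKM in WT and 58.0 to 78.1 FPKM in HO), 7 endothelial markers (46.4 to 57.1 FPKM in WT and 43.9 to 48.5 FPKM in HO) and 7 lymphocyte markers (1.27 to 2.19 FPKM in WT and 0.66 to 1.44 FPKM in HO) overlapped between the groups.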

How the data were processed

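RNA sequencing of liver was deposited as 1 table of FPKM values for 24034 genes in 6 libraries, computed by the authors. Per the submitters' processing notes, HISAT2, HTSeq, DESeq2, StringTie and the build mm10 were used, and versions and roles are not given in the sources used here. Libraries kept the strand, per the labels' protocols. Strand use in counting is not stated. Low values were whole multiples of a read step in 24.8% to 27.8% of cases (tolerance 0.02 reads), too few to recover counts, and read numbers behind single values are unknown.

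log2(FPKM + 0.5) of the 13250 genes whose mean reached 0.5 FPKM was fitted with limma 3.58.1 (R 4.3.3, eBayes with a trend, no block), two-sided, with Benjamini-Hochberg adjustment over all genes at 0.05. Errors are SDs over 3 libraries, or SEs and 95% intervals of the fit. The fit was tested on simulated data. Alternatives, 17 in all, changed the pseudocount (1 or 0.1), the filter, the scaling, the variance model (array weights with statmod 1.5.0) or left out a library or blocked on the replicate number. Chosen after seeing the data were the 500-base boundary and the combination with nuclear copies. Genes and lists were chosen with earlier results of these data known. Every gene tested is named. Full values are given for the lowest p and highest level in each complex, for mitochondrially encoded genes and tissue isoforms, and for up to 3 genes of each pathway list. A few further genes were given in full after their values were seen. 1 cell type marker is not reported here.

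All IDs were found in GENCODE mouse release 21 (GRCm38, the assembly of mm10), which gave positions and transcripts, and RefSeq (GRCm38.p6) gave promoters. Python 3.11.15, pandas 2.3.3, numpy 2.4.6, Biopython 1.88 and matplotlib 3.10.9 were used.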

Additional observations from a re-analysis of the deposited data

How the results depend on the processing

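The count of complex II to V genes past the threshold, 0 with limma as fitted (20 lower at an unadjusted p under 0.05), was 1 when FPKM was rescaled to nuclear genes, 9 with array weights and 0 to 1 when single libraries were left out. The count over all genes, 151, was 100 with a pseudocount of 0.1, 40 without the filter, 77 without a trend, 941 with array weights and between 6 (without WT replicate 2) and 259 (without WT replicate 3). Genes of the complexes lower at an unadjusted p numbered 9 and 13 under median-of-ratios and quantile scaling, and 12 to 27 when single libraries were left out.

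Medians moved with scaling. Under median-of-ratios and quantile scaling they were -0.15 and -0.17 for nuclear genes, -0.11 and -0.12 for complex II, -0.17 and -0.18 for complex III and -0.096 and -0.10 for complex V. The mitochondrially encoded median was -0.053 and -0.083 under these scalings and -0.089 without mt-Atp6. The complex V median was -0.28 to -0.18 when single libraries were left out, lowest without HO replicate 1. Signs turned for genes near 0. Under the same scalings Sdha was at 0.060 and 0.038, mt-Co1 at 0.029 and 0.12, mt-Co3 at 0.013 and 0.0061 and Atp5g2 at 0.073 and 0.051. Atp5b was at 0.080 under median-of-ratios scaling and at -0.052 to 0.0074 with single libraries left out, and Atp5g2 at 0.0029 with array weights and at -0.056 to 0.014 with single libraries left out. The cause of these shifts was not tested.

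The labels do not say whether same-numbered libraries belong together, and the main fit did not pair them. Residuals of same-numbered libraries correlated at 0.066, -0.028 and 0.015, and those of differently numbered ones at -0.13 to 0.13. With so few libraries these correlations cannot settle whether the samples are paired. With the replicate number as a block, 25 of all genes and 0 of the complex II to V genes passed with limma, and 21 of the latter were lower at an unadjusted p under 0.05. Under the block the adjusted p was 0.0761 for Pet100 and 0.0571 for Cps1. Of the log2 changes of 21 single genes recomputed under the alternatives, 322 values kept their direction and side of the threshold, 9 came to pass it, 17 no longer passed it (Pet100 and Cps1) and 13 changed sign. Cox7a1, Cox6b2 and Atp5s had the lowest levels above 0 among the complex II to V genes, and Cox6b2 was not tested. The largest SE of a log2 change was that of mt-Atp6, 0.67, followed by Atp5k and Uqcr11 at 0.24. It was 0.22 for Cox7a1 and 0.12 for Atp5s.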
